A study of Homo sapiens with 18 samples.

Results

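The 8 genes described here form the gate between growth signals and the cell cycle: the D cyclins CCND1, CCND2 and CCND3, their kinases CDK4 and CDK6, the CDK inhibitors CDKN1B (p27) and CDKN1C (p57), and RB1, the substrate of the kinases. They are taken by name as the parts of this gate, and all 8 were found by gene ID among the 23604 entries listed in at least 1 of the 8 RNA-Seq libraries. All 8 passed the filter on low counts, which left 16948 genes to test. The cells were MCF10A-Er-Src, a line derived from the untransformed human breast epithelial line MCF10A that carries a v-Src kinase fused to the part of the oestrogen receptor that binds tamoxifen. In NT cells the fusion was not switched on, and in TAM cells tamoxifen had activated it and the cells were transformed. Both kinds were incubated for 4 h with triptolide, labelled TPL-125nM and called TPL below, or with DMSO alone, which gives 4 groups (NT and NT+TPL, TAM and TAM+TPL) with 2 RNA-Seq libraries each. TPL is a small molecule that binds XPB, a subunit of TFIIH, which opens promoters for transcription. The study states that the replicates are independent biological ones, but all come from a single engineered line. The promoters of the same genes were looked up in 4 lists of RNA polymerase II (RNAPII) ChIP-Seq peaks that cover a transcription start site (TSS), 1 list per group.

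D cyclins are short-lived proteins whose mRNAs are made when growth factors signal. They bind CDK4 or CDK6, and the active pair phosphorylates RB1, which then releases E2F factors that switch on the genes of DNA replication. CDKN1B and CDKN1C bind cyclin and CDK together, restrain the cyclin E and CDK2 pair and are counted among the brakes on entry into S phase. CDK7, the kinase that activates the other CDKs, is itself part of TFIIH, the complex that TPL targets.

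The genes differ in the sequence just before their starts, and 3 of these stretches are printed, those of CCND1, CDK4 and CDK6. Each is the 250 bases before the TSS of the main transcript, read 5′ to 3′ on the strand of the gene from build GRCh37 (hg19), with start sites from GENCODE release 44 placed on that build. They lie at chr11:69455674-69455923 on the plus strand (CCND1), chr12:58146094-58146343 on the minus strand (CDK4) and chr7:92465888-92466137 on the minus strand (CDK6). Capitals mark any match, on either strand, to the TATA box TATAAA, the CCAAT box CCAAT, the GC box GGGCGG, the AP-1 motif TGANTCA, the CRE motif TGACGTCA, the E2F motif GGCGGGAA or the E-box CACGTG.
CCND1: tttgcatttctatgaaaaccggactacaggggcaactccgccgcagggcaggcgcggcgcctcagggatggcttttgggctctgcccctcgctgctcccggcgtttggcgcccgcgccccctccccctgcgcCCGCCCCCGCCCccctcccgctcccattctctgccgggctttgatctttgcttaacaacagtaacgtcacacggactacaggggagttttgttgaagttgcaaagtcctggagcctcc
CDK4: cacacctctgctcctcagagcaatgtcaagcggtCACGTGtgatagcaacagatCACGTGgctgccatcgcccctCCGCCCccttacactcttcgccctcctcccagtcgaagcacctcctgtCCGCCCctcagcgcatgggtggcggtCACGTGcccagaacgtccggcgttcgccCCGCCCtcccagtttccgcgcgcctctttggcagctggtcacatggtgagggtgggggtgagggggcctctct
CDK6: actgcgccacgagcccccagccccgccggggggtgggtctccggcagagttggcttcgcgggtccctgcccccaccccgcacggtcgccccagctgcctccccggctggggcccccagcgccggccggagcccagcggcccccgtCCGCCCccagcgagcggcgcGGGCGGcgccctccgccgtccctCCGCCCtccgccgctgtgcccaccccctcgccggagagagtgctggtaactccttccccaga

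Motifs are given for these 3 genes alone, searched from 250 bases before to 50 bases after the TSS. CDK4 held 3 E-boxes. CDK6 held 1, which begins at base 31 counted from the TSS and so lies outside the printed stretch. Of 19811 promoters of protein-coding genes 8.8% held any. CCND1, CDK4 and CDK6 each held a GC box, as did 61.5% of all promoters. A match is a run of letters and not a shown binding site, and a gene without a match may still hold a variant of the motif.

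**Figure D1:**
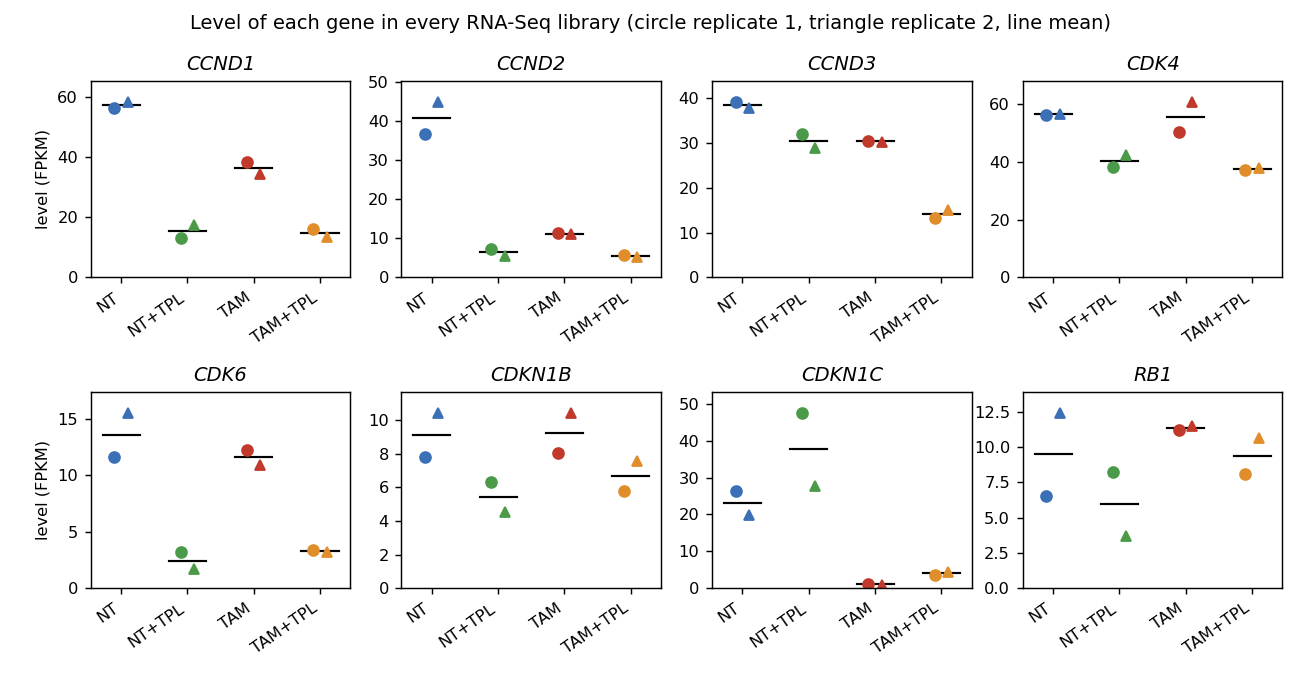
Level in FPKM of each of the 8 genes in every RNA-Seq library, by group, with replicate 1 as a circle, replicate 2 as a triangle and the mean of the 2 as a line; each axis starts at 0. CCND1, CCND2 and CDK6 lay lower in the TPL libraries of both cell states, whereas the CDKN1C level was set apart mainly by cell state, at most 4.39 FPKM in TAM and TAM+TPL and at least 19.79 FPKM in NT and NT+TPL.

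The levels are FPKM, the reads of a gene scaled to transcript length and to the mapped reads of the library, so that levels of different genes can be set side by side. In NT cells CCND1 and CDK4 were the most abundant of the 8, at means of 57.4 ± 1.51 and 56.6 FPKM (n = 2), above 94.1% and 94.0% of the listed entries, and their libraries overlapped. CCND2 and CCND3 followed at 40.6 and 38.4 FPKM, and their libraries overlapped. CDKN1C was next at 23 FPKM, then CDK6 at 13.6, RB1 at 9.48 and CDKN1B at 9.11 FPKM, and RB1 overlapped with both CDK6 and CDKN1B. In TAM cells CDK4 led at 55.7 FPKM, ahead of CCND1 at 36.4 and CCND3 at 30.3 FPKM, and CDKN1C came last at 1.01 FPKM. Depth was even, between 7461309 and 8349448 expected counts per library, and the least counted value among the 8 genes was 12 counts, for CDKN1C in TAM replicate 2.

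The cells expressed the keratins of basal breast epithelium in every library. The summed level of 8 basal markers lay between 17230 and 18977 FPKM in NT, 10785 and 13775 in NT+TPL, 7926 and 8157 in the TAM libraries and 4121 and 4508 under TAM+TPL, a sum made up mostly of the keratins KRT5, KRT17 and KRT6A. The 8 markers did not move as one. With TPL 5 fell and 1, the integrin ITGB4, rose in NT cells, and 4 fell in TAM cells. With DMSO 3 of 8 were lower in TAM than in NT cells. TP63 (log2 fold change 0.36), LAMB3 (0.69), KRT6A (0.12), CDH1 (-1.41) and ITGB4 (-0.66) did not pass. Over all genes at the same adjusted p of 0.05, 19.8% fell and 17.2% rose with TPL in NT cells. In TAM cells 18.6% of all genes fell with TPL, and 3.39% were lower in TAM than in NT cells with DMSO. The part of the marker shifts in the results below was not tested. ESR1, whose ligand-binding part the fusion carries, was listed at 199.7 and 248.5 FPKM in NT and at 36.9 and 39.8 in TAM+TPL, while its target gene PGR had at most 1 count per library. Of other cell types, the endothelial gene CDH5 was not listed in any library and CD3E had at most 2 counts. Among the blood markers CD68, a lysosomal protein, was abundant and made up most of a sum that lay between 47.4 and 47.8 FPKM in NT and between 281.3 and 301.5 in TAM. The fibroblast sum stayed between 4.23 and 12.92 FPKM. One of its 5 genes, the collagen gene COL1A2, had 48 and 47 counts in TAM replicate 2 and TAM+TPL replicate 1 and at most 1 count in the other libraries. The same pair of libraries were those with any counts of the CDK inhibitor genes CDKN2A and CDKN2B, at most 6.58. What sets this pair apart was not tested, and results on TAM cells are also given without both, after the comparisons for the 8 genes and at the end of the pathway lists.

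Whether TPL changes the mRNAs of the gate was asked in NT and in TAM cells separately. With TPL, CCND1, CCND2 and both kinases fell in both cell states, CCND3 fell in TAM cells, and neither CDKN1B nor RB1 passed the test in either. CDKN1C rose in TAM cells. These calls need an adjusted p of 0.05 or less in edgeR (quasi-likelihood test, Benjamini-Hochberg over all genes), so 0 of 8 rose and 4 fell in NT cells and 1 rose and 5 fell in TAM cells. Over all 16948 genes, 17.2% rose and 19.8% fell in NT cells, and 14.3% rose and 18.6% fell in TAM cells. By the thresholds in the methods of the study, which ask for an adjusted p of 0.001 or less together with a log2 fold change beyond ±1.2, 2 of 8 were called lower in NT cells and 0 higher, where 2.71% and 1.22% of all genes were called. Leaving out NT+TPL replicate 1 kept the call of CCND2 alone, beside 139 lower and 74 higher of all 17727 genes then tested. Leaving out NT+TPL replicate 2 kept neither, beside 11 lower and 8 higher of all genes. Leaving out any other single library kept neither, and 0 of all genes were then called. In TAM cells 0 of 8 were called by those thresholds, against 2.04% lower and 0.844% higher of all genes. There, 6 of 8 had an unadjusted p under 0.05, beside 45.1% of all genes, and DESeq2 called 3 by the same thresholds, beside 11.9% of the genes it tested. The 8 genes had a median log2 fold change of -0.72 (NT) and -0.85 (TAM), beside 0.09 and 0.05 over all genes. All values are relative to the other mRNAs of a library, and in bulk RNA fewer cells that express a gene cannot be told apart from less RNA per cell.

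**Figure D2:**
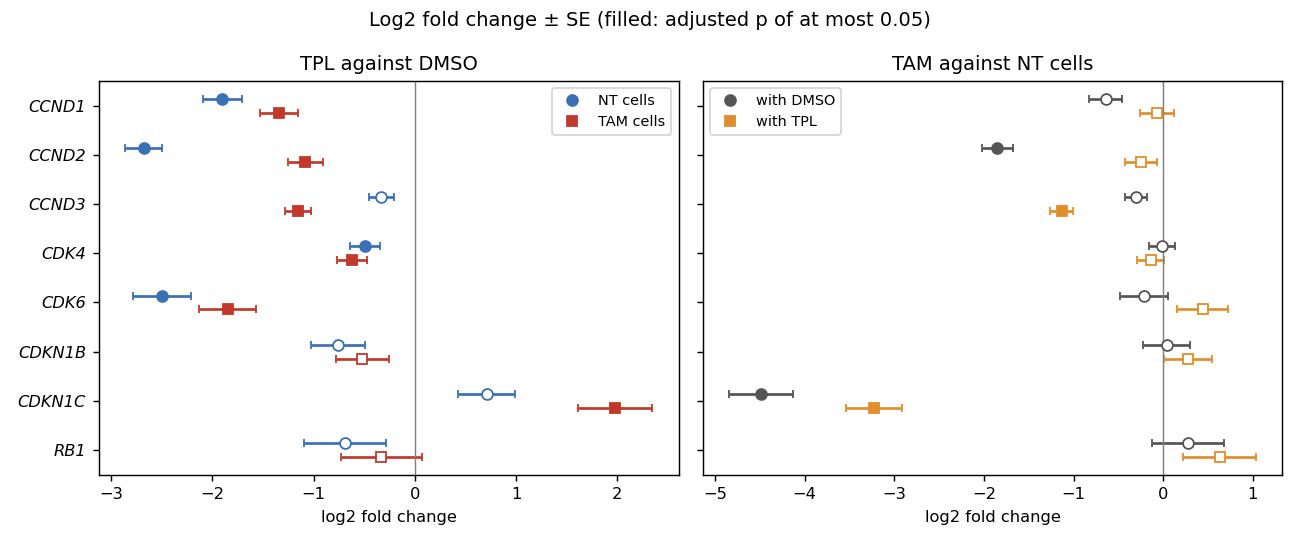
Log2 fold change with its standard error for TPL against DMSO in NT and TAM cells (left) and for TAM cells set against NT cells, either both with DMSO or both with TPL (right); filled symbols passed an adjusted p of 0.05. With TPL the D cyclins and CDK6 lie left of 0 and CDKN1C lies right of it, and between the cell states CDKN1C is farthest from 0, at -4.49 with DMSO.

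CCND1, the D cyclin most often amplified in breast cancer, was at 56.3 and 58.4 FPKM in NT and 13.3 and 17.5 FPKM in NT+TPL. In TAM it was at 38.3 and 34.6 FPKM, and in TAM+TPL at 16.3 and 13.6 FPKM. Every TPL library lay under every DMSO library, and the treated levels of both cell states overlapped. With TPL the log2 fold change was -1.90 ± 0.193 (SE) in NT cells, a fall to 0.268 of the DMSO level (edgeR adjusted p = 0.000796), and -1.34 ± 0.191 in TAM cells (edgeR adjusted p = 0.00294). Without TPL the TAM libraries were lower than the NT libraries, by a log2 fold change of -0.64 that did not pass (edgeR adjusted p = 0.104, and 0.0085 in DESeq2).

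CCND2, a D cyclin that differs from cell type to cell type, fell with TPL in both cell states and was lower in TAM than in NT cells with DMSO. Its level was 36.5 and 44.8 FPKM in NT, 7.30 and 5.44 in NT+TPL, 11.3 and 11.0 in the TAM libraries and 5.79 and 5.09 under TAM+TPL. The NT libraries stood above all others, the TAM libraries lay in between, and the TPL libraries of both states overlapped at the bottom. With TPL it fell by 2.68 on the log2 scale in NT cells (SE 0.182, edgeR adjusted p = 0.000259) and by 1.08 in TAM cells (SE 0.176, edgeR adjusted p = 0.00486). TAM cells with DMSO had 0.277 of the level of NT cells, a log2 fold change of -1.85 ± 0.175 (edgeR adjusted p = 0.00166). With TPL the cell states differed by -0.25, which did not pass (edgeR adjusted p = 0.484).

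CCND3 followed another pattern. It was at 39.1 and 37.7 FPKM in NT, 32.0 and 28.9 in NT+TPL, 30.5 and 30.2 in the TAM libraries and 13.3 and 15.0 under TAM+TPL. The TAM+TPL libraries stood alone at the bottom, and those of NT+TPL and TAM overlapped. TPL lowered it in TAM cells (log2 fold change -1.15 ± 0.128, edgeR adjusted p = 0.00118), while in NT cells the value was -0.33 ± 0.124 (edgeR adjusted p = 0.0787). With TPL, TAM cells had less CCND3 than NT cells (log2 fold change -1.13 ± 0.128, edgeR adjusted p = 0.00371).

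The summed level of the D cyclins was 136 ± 6.36 FPKM in NT (SD, n = 2), 52.2 ± 0.54 in NT+TPL, 77.9 ± 3.10 in the TAM libraries and 34.5 ± 1.16 under TAM+TPL, and no libraries of different groups overlapped. In NT cells CCND1 made up 42.1% of this sum, CCND2 29.7% and CCND3 28.2%. In NT+TPL cells CCND3 became the most abundant D cyclin mRNA at 60.9 and 55.8% of the sum, with CCND2 at 12.2%. In TAM cells the shares were 46.7, 14.3 and 39.0%, and with TPL they were 43.2, 15.8 and 41.1%, so the make-up there stayed within the range of the libraries for CCND3 (38.1 and 39.8% in TAM, 37.5 and 44.6% in TAM+TPL). These shares are a description with no test, since 2 against 2 libraries cannot go below p = 0.333 in a two-sided exact permutation test.

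**Figure D3:**
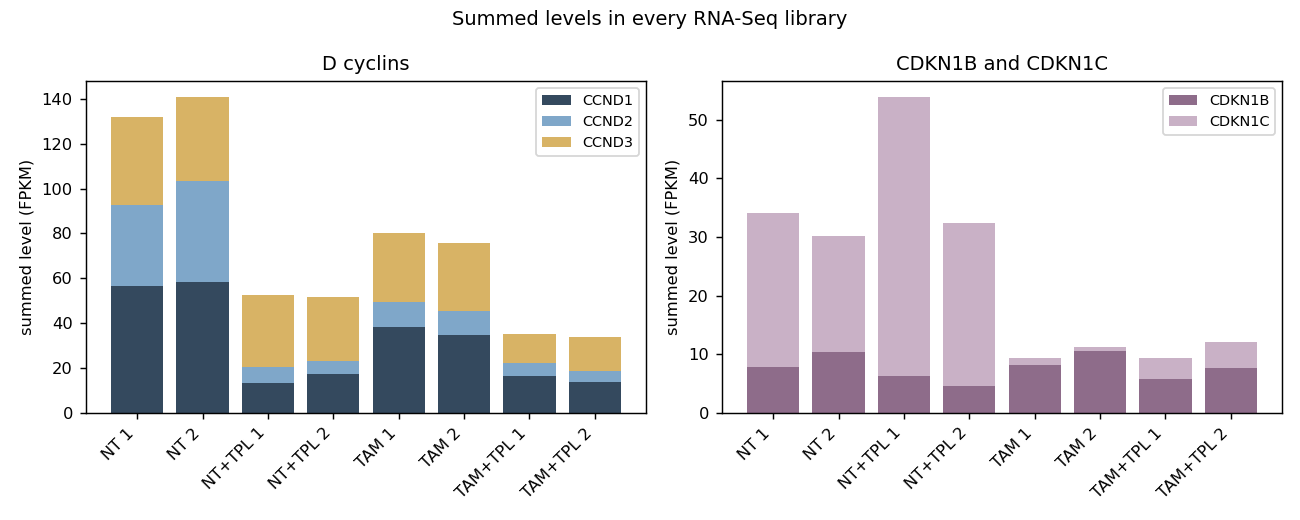
Summed level in FPKM of the D cyclins (left) and of CDKN1B with CDKN1C (right) in each library as stacked bars that start at 0. The D cyclin bars shrink with TPL in both states, CCND3 takes most of them in NT+TPL, and CDKN1C takes most of the inhibitor bars in NT and NT+TPL and little in TAM.

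Of the catalytic partners, CDK6 had the larger fold changes. CDK6 was at 11.7 and 15.6 FPKM in NT and 3.19 and 1.68 in NT+TPL, and at 12.3 and 11.0 FPKM in the TAM libraries and 3.42 and 3.23 under TAM+TPL. All TPL libraries lay under all DMSO libraries, and the cell states overlapped without TPL. Its log2 fold change with TPL was -2.50 ± 0.288 in NT cells (edgeR adjusted p = 0.00117) and -1.85 ± 0.280 in TAM cells (edgeR adjusted p = 0.00368).

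CDK4 was at 56.3 and 56.8 FPKM in NT, 38.4 and 42.6 in NT+TPL, 50.5 and 60.8 in the TAM libraries and 37.3 and 37.9 under TAM+TPL. Here too no TPL library reached a DMSO library, but the distance was small. The log2 fold change with TPL was -0.49 ± 0.149 in NT cells (edgeR adjusted p = 0.0404) and -0.62 ± 0.149 in TAM cells (edgeR adjusted p = 0.0203). These calls passed in fewer alternatives than those of the other members, in 9 of 21 in NT cells and 15 of 20 in TAM cells. Leaving out any library other than NT+TPL replicate 2 gave an adjusted p between 0.0511 and 0.141 in NT cells, and leaving out TAM replicate 2 or either TAM+TPL library gave between 0.0933 and 0.123 in TAM cells. With upper quartile scaling the adjusted p was 0.197 in NT and 0.0925 in TAM cells. The ratio of the CDK4 level to the CDK6 level was 4.82 and 3.65 in NT and 12 and 25.4 in NT+TPL, and 4.12 and 5.55 in the TAM libraries and 10.9 and 11.7 under TAM+TPL. The ratio was thus higher in every TPL library than in any DMSO library. Some expected counts of both kinase genes were not whole numbers, which means that reads were shared with other transcripts.

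CDKN1C, the inhibitor p57, showed the greatest difference of the set between cell states. It was at 26.2 and 19.8 FPKM in NT, 47.6 and 27.8 in NT+TPL, 1.22 and 0.81 in the TAM libraries and 3.58 and 4.39 under TAM+TPL, which in TAM cells rests on 18 and 12 expected counts. All TAM and TAM+TPL libraries lay below all NT and NT+TPL libraries. With DMSO, TAM cells had 22.5-fold less than NT cells (log2 fold change -4.49 ± 0.357, edgeR adjusted p = 0.000852), and with TPL 9.35-fold less (log2 fold change -3.23 ± 0.313, edgeR adjusted p = 0.00186). TPL raised it in TAM cells by a log2 fold change of 1.98 ± 0.367 (edgeR adjusted p = 0.00781, and 0.0611 without TAM replicate 2). In NT cells the value was 0.71 ± 0.279 (edgeR adjusted p = 0.0844), with the NT+TPL libraries above the NT libraries but far apart from each other. It passed there in 4 of 21 alternatives: without NT+TPL replicate 2 (log2 fold change 1.03, edgeR adjusted p = 0.0326), with DESeq2 (adjusted p = 0.0357), with upper quartile scaling (edgeR adjusted p = 0.0377) and where each library needed 10 counts (edgeR adjusted p = 0.0288).

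CDKN1B is the inhibitor p27, which is controlled to a large part by protein degradation. It was at 7.79 and 10.4 FPKM in NT, 6.34 and 4.51 in NT+TPL, 8.08 and 10.5 in the TAM libraries and 5.77 and 7.60 under TAM+TPL. The TPL libraries lay under the DMSO libraries, with log2 fold changes of -0.76 ± 0.264 in NT cells (edgeR adjusted p = 0.0603, with 4 of 21 alternatives at 0.05 or less, among them DESeq2 at 0.0313) and -0.52 ± 0.261 in TAM cells (edgeR adjusted p = 0.166) that did not pass. The ratio of CDKN1C to CDKN1B was 3.37 and 1.90 in NT and 7.50 and 6.16 in NT+TPL, but 0.151 and 0.0775 in the TAM libraries and 0.620 and 0.578 under TAM+TPL, so the more abundant of the pair changed with the cell state. Set against the sum of the pair, the D cyclin sum was 3.88 and 4.66 times as high in NT, 0.975 and 1.60 in NT+TPL, 8.61 and 6.72 in the TAM libraries and 3.78 and 2.81 under TAM+TPL. These ratios leave out CDKN1A, another CDK inhibitor, which lay between 77.6 and 315.5 FPKM over all libraries. The pair summed to at most 53.9 FPKM, so the ratios do not describe D cyclins against all CDK inhibitors.

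RB1, the retinoblastoma protein that the kinases inactivate, was at 6.54 and 12.4 FPKM in NT, 8.25 and 3.69 in NT+TPL, 11.2 and 11.5 in the TAM libraries and 8.08 and 10.6 under TAM+TPL. The NT libraries differed from each other by more than any group means did. The log2 fold changes with TPL were -0.69 ± 0.408 in NT cells (edgeR adjusted p = 0.221) and -0.33 ± 0.401 in TAM cells (edgeR adjusted p = 0.554). Without NT+TPL replicate 1 the value in NT cells was -1.33 (edgeR adjusted p = 0.0481).

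TAM cells differ from NT cells both in exposure to tamoxifen and in active v-Src, and these samples cannot tell the effects of the 2 apart. Between TAM and NT cells with DMSO, CCND2 and CDKN1C were lower in TAM cells and none of the 8 was higher at an adjusted p of 0.05. Of all genes, 3.39% were lower and 3.46% higher. By the stricter thresholds 1 of 8 was lower, against 0.277% of all genes, and 0 were higher, against 0.378%. That gene was CDKN1C, and its call was kept without either NT+TPL library. It was lost without any other single library, where 0 of all genes were called lower. CDK4, CDK6, CDKN1B and RB1 had log2 fold changes between -0.21 and 0.28 with adjusted p of 0.734 or more in edgeR. With TPL in both states CCND3 and CDKN1C were lower in TAM cells, 2 of 8, beside 4.21% of all genes, and 0 of 8 were higher, beside 2.83%. None of the 8 was called there by the stricter thresholds, which called 0.236% of all genes lower and 0.36% higher. In that comparison 2 of 8 had an unadjusted p under 0.05, a share near the 21.3% of all genes, and DESeq2 called CDKN1C by the stricter thresholds, beside 3.99% of the genes it tested.

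The question whether TPL acted differently in TAM and NT cells was put to an interaction term. None of the 8 passed an adjusted p of 0.05 in edgeR, where 0.0885% of all genes had a higher and 0.0767% a lower TPL effect in TAM cells, and the stricter thresholds called 0% of genes in either direction. In all, 3 of 8 had an unadjusted p under 0.05, beside 10.6% of all genes. CCND2 came nearest, with a log2 difference of 1.60 ± 0.246 (edgeR adjusted p = 0.0863), its fall being the smaller in TAM cells, which began at a lower level. CCND3 differed the other way by -0.83 ± 0.177 (edgeR adjusted p = 0.189), and CDKN1C by 1.27 ± 0.461 (edgeR adjusted p = 0.409). DESeq2 passed 2 of them at 0.05, CCND2 (adjusted p = 3.08e-07) and CCND3 (adjusted p = 0.00699), beside 3.26% of the genes it tested, and CCND2 alone by the stricter thresholds, beside 0.94%. The TPL comparison in TAM cells and that of TAM with NT cells share the TAM libraries, so they are not independent.

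Without TAM replicate 2 and TAM+TPL replicate 1, the pair with COL1A2 counts, each TAM group held a single library and 0 genes of the set passed in the comparisons that use them. With TPL in TAM cells the log2 fold changes were then -1.55 for CCND1, -1.2 for CCND2, -1.08 for CCND3, -0.47 for CDK4, -1.98 for CDK6 and 1.87 for CDKN1C. Those of the genes that had not passed moved by over 1.5 times, from -0.52 to -0.14 for CDKN1B and from -0.33 to -0.13 for RB1. With DMSO, the difference between the states was then -1.84 for CCND2 and -4.24 for CDKN1C.

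The wider pathway was read from lists of genes chosen by function, at an adjusted p of 0.05. Beside each list stand the shares over all genes at that threshold. With TPL 17.2% rose and 19.8% fell in NT cells, and 14.3% rose and 18.6% fell in TAM cells. In TAM against NT cells 3.46% were higher and 3.39% lower with DMSO, and 2.83% and 4.21% with TPL. Of the 5 other CDK inhibitors 3 had enough counts to test, and all 3 rose with TPL in NT cells and 2 of 3 in TAM cells, with 0 that fell. CDKN1A (p21), a target of p53, was at 91.1 and 93.1 FPKM in NT and 315.5 and 233.9 in NT+TPL, and at 77.6 and 78.8 in the TAM libraries and 181.2 and 143.3 under TAM+TPL. Its log2 fold changes were 1.56 ± 0.174 (edgeR adjusted p = 0.00105) and 1.02 ± 0.172 (edgeR adjusted p = 0.0056). CDKN2C (p18), which binds CDK4 and CDK6, was low, at most 1.37 FPKM in any DMSO library and at least 3.19 in any TPL library. CDKN2D (p19), of the same family, passed in NT cells, where it was at 0.97 and 0.65 FPKM with DMSO and 5.33 and 4.72 with TPL.

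Among 12 pocket proteins and E2F factors, 6 fell and 1 rose with TPL in NT cells, and 4 fell and 1 rose in TAM cells. E2F4, which acts as a repressor with the pocket proteins RBL1 and RBL2, was the most abundant and fell from 105.7 and 97.7 to 36.0 and 36.6 FPKM in NT cells and from 128.4 and 120.8 to 40.6 and 39.5 FPKM in TAM cells (log2 fold changes -1.49 and -1.69, edgeR adjusted p = 0.000446 and 0.000385). E2F5, E2F6 and the dimer partner TFDP1 also fell in both states, E2F3 and the scarce E2F8 in NT cells, and the second partner, TFDP2, rose in both. Several of these calls lie near the threshold: in NT cells E2F6 passed in 9 of 21 alternatives, TFDP2 in 6 of 21 and E2F8 in 6 of 19, and in TAM cells E2F6 passed in 6 of 20 and TFDP2 in 12 of 20. The median log2 fold change of the list was -1.03 in NT and -0.91 in TAM cells.

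Of the 6 genes around cyclin E, cyclin A and CDK2, which act after the D cyclins, CCNE1 and CDC25A fell and CCNE2 rose in NT cells, and CCNE1, CCNA2 and CDC25A fell in TAM cells. CCNE1 was at 4.81 and 3.97 FPKM in NT, 2.70 and 2.02 in NT+TPL, 12.8 and 11.8 in the TAM libraries and 4.29 and 3.81 under TAM+TPL. With DMSO, CCNE1, CCNE2 and CCNA2 were higher in TAM than in NT cells, by log2 fold changes of 1.5, 1.85 and 1.41 (edgeR adjusted p = 0.0121, 0.0183 and 0.0171), while no D cyclin was. All 3 genes of the CDK-activating kinase, CDK7, CCNH and MNAT1, fell in NT cells (log2 fold changes -0.72, -0.85 and -1.13), and CDK7 and CCNH fell in TAM cells (-0.70 and -0.92). The CDK7 call held in 10 of 21 alternatives in NT cells and in 11 of 20 in TAM cells. Of 7 ubiquitin ligase parts and kinases that act on D cyclins or p27, SKP2, which marks p27 for degradation, fell in both states (-0.88 and -0.79), GSK3B fell in NT cells (-0.75), and 0 rose. These falls, 2 of 7 in NT cells and 1 of 7 in TAM cells, lie near the shares over all genes. The GSK3B call (edgeR adjusted p = 0.0469) held in 5 of 21 alternatives, and with 1 library left out its log2 fold change lay between -0.43 and -1.12. CKS1B, the partner of SKP2, was higher in TAM than in NT cells with DMSO (1.03) and with TPL (0.97).

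Without TAM replicate 2 and TAM+TPL replicate 1, the calls of the pathway lists in the comparisons that use them were lost as well, 13 with TPL in TAM cells, 4 between the states with DMSO and 3 with TPL. The edgeR adjusted p with TPL in TAM cells was then 0.0559 for E2F4, 0.104 for CCNE1, 0.153 for CCNA2 and 0.178 for CDKN1A. Between the states with DMSO it was 0.185 for CCNE1, 0.22 for CCNE2 and 0.203 for CCNA2. The log2 fold changes were -1.76 for E2F4, -1.8 for CCNE1, -1.4 for CCNA2 and 0.84 for CDKN1A with TPL, and 1.56, 1.86 and 1.48 for the cyclins CCNE1, CCNE2 and CCNA2 between the states.

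Genes whose profile over the 8 libraries was most like that of a member were found among 8544 tested genes of at least 5 FPKM on average, by Pearson's r of log2 expression over the 8 libraries. Those nearest to CCND1 were ALDH1B1, NOM1 and DHX37, with r of 0.992, 0.992 and 0.991. Nearest to CCND2 were THBS1, AP5B1 and GPSM2 (0.992, 0.991 and 0.990), to CDK4 SRI, TIMM9 and FSAF1 (0.990, 0.987 and 0.985), and to CDK6 RAI14, KANSL1 and NUMBL (0.997, 0.996 and 0.995). An r above 0.95 was reached by 627 genes for CDK6, 299 for CCND1, 153 for CDK4 and 62 for CCND2. With 4 groups of 2 such values mostly restate the order of the group means.

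RNAPII was found at most of these promoters. A listed peak covered the TSS of 7 of the 8 genes in NT, 5 in NT+TPL, 7 in the TAM list and 6 in that of TAM+TPL, beside 47.9, 38.3, 42.2 and 37.5% of 19812 coding genes. Of the 7 in NT, CCND2 and CDK6 had none in NT+TPL, where 22.9% of the 9482 coding genes with a peak in NT had none. CCND2 was the 1 gene of 7 with a peak in the TAM list and none in that of TAM+TPL, where 19.1% of the 8361 coding genes with a peak in TAM had none. The lists give starts and ends on hg19 for pooled replicates, with no height, so they allow no test and a missing peak may be a weak one. Peak names in the TAM list carry a q setting of 0.1 and those of the other lists a cutoff of 0.02, so lengths in TAM and in the other lists were not set on 1 scale. A peak present in TAM and absent elsewhere also cannot be told apart from a difference in this setting. The CCND2 peak in TAM was longer than only 1.3% of the peaks over coding TSSs in that list.

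**Figure D4:**
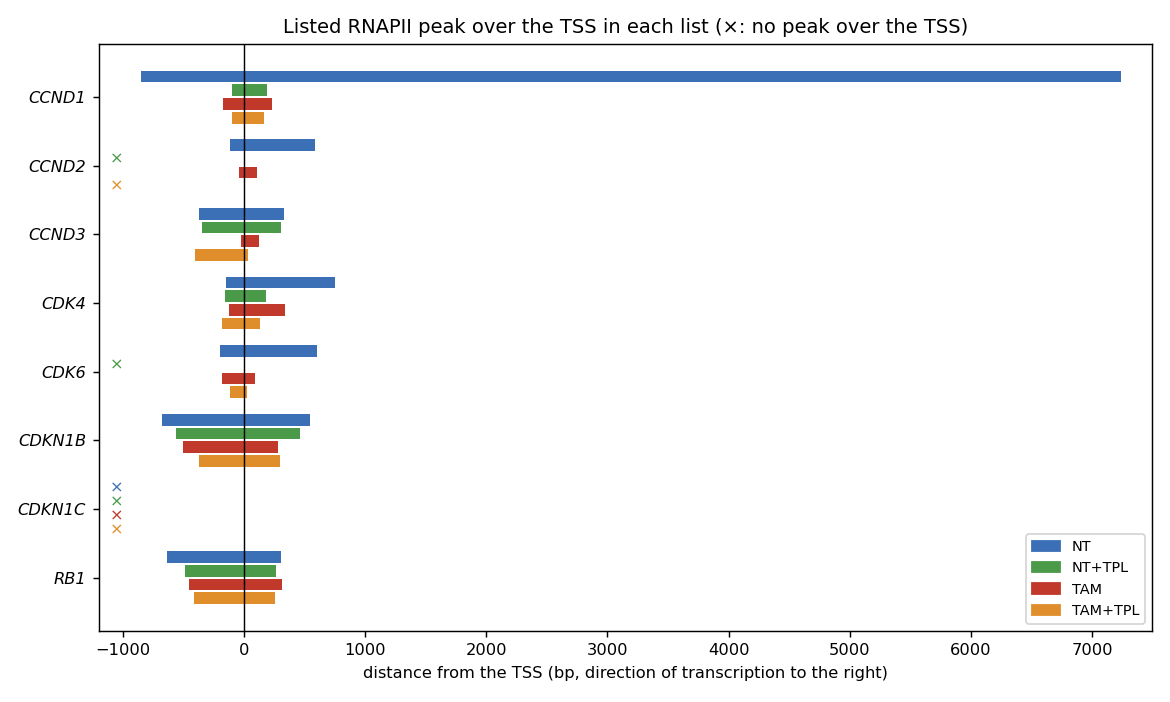
Extent of the listed RNAPII peak over the TSS of each gene in each of the 4 lists, as a bar in base pairs from the TSS, with a cross where no listed peak covers it. The CCND1 bar of NT reaches 7242 bp into the gene and the other CCND1 bars at most 232 bp, CCND2 has no bar with TPL, and CDKN1C has none in any list.

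At CCND1, the NT list held 1 peak of 8094 bp at chr11:69455073-69463166, from 851 bp before the TSS to 7242 bp into the gene, which spans 13319 bp. It was longer than 99.1% of the peaks over coding TSSs in that list, whose median was 722 bp. The peak was 290 bp long in NT+TPL, 409 bp in the TAM list and 264 bp in that of TAM+TPL, all within 232 bp downstream of the TSS. The ratio of the lengths in NT and NT+TPL, 27.91, was above that of 99.8% of 7313 coding genes with a peak in both lists, whose median was 1.14. Since a single long interval can be 1 broad region or several merged ones, the length says where enrichment was called and not how strong it was.

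CCND2 had a peak of 703 bp in NT and 145 bp in TAM, and a second one in NT from 1035 to 1514 bp into the gene. With TPL the nearest listed peak was 46881 bp away in NT+TPL and 47027 bp in TAM+TPL. Of 8082 coding genes with a TSS peak in both NT and TAM, 1000 (12.4%) had none in both TPL lists, as here. That share, too, rests on the TAM list with its other setting.

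CDK6 had a peak of 808 bp in NT, 274 bp in the TAM list and 145 bp in that of TAM+TPL and none in NT+TPL, where the nearest listed one was 246055 bp away. The peaks in NT and TAM also covered the start of the antisense gene CDK6-AS1, so the polymerase there may belong to either gene. CDK4 kept a peak in all 4 lists, of 906 bp in NT, 334 in NT+TPL, 462 in the TAM list and 318 in that of TAM+TPL, and its reach into the gene was 753, 179, 339 and 132 bp.

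CCND3, CDKN1B and RB1 had a TSS peak in every list. For CDKN1B it was the longest of these, 1227 bp in NT, 1021 in NT+TPL, 784 in the TAM list and 668 in that of TAM+TPL, and for RB1 it was 938, 753, 764 and 666 bp and shared with RB1-DT, a noncoding gene that starts there. At CCND3 the lengths were 703 and 651 bp in NT and NT+TPL, and 439 bp in TAM+TPL. In TAM the enrichment was listed as a peak of 143 bp over the TSS and one of 266 bp just before it. The ratio of NT to NT+TPL lengths was 1.08 for CCND3, 1.2 for CDKN1B and 1.25 for RB1, near the median of 1.14.

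CDKN1C had no listed peak over its TSS in any of the 4 lists, although its mRNA stood above 85.2% of listed entries in NT and 92.0% in NT+TPL. The nearest listed peaks were 43090, 43290, 12921 and 42935 bp away in the lists of NT, NT+TPL, TAM and last TAM+TPL. A TSS of another coding transcript of these genes, or a distance of up to 1 kb, gave the same counts of genes with a peak in all 4 lists.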

How the data were processed

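RNA-Seq was made from 8 cultures (2 per group), and 8 RNAPII ChIP-Seq samples and 2 inputs stand behind the peak lists. The authors enriched poly-A RNA, aligned reads with Bowtie2 and estimated expression with RSEM. The deposited expected counts are its unnormalized read estimates for each gene, and the deposited FPKM divide them by transcript length and mapped reads. The authors' peak lists hold starts and ends, deposited without a score or coverage signal. Reads were mapped to hg19, with SOAP2 by the methods while the processing notes name BWA, and peaks were called over input. Whether strand was used in counting is not given in the sources used here.

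The 8 genes and the lists were chosen with earlier results of these data known. The genes named are all 8 members, the pathway-list genes past an adjusted p of 0.05, and for members past it with TPL in both states the 3 genes of highest r. Expected counts were rounded and fitted in 4 groups by the quasi-likelihood test of edgeR 4.0.16 (R 4.3.3) after TMM scaling and its group-wise low-count filter, with Benjamini-Hochberg adjustment over 16948 genes. The biological coefficient of variation was 0.315. Depth was between 7461309 and 8349448 counts per library, and with 2 libraries per group the standard errors rest on the spread shared across genes. Each standard error was derived from the test, as the size of the log2 fold change divided by the square root of its F statistic. Unlisted genes were taken as 0. Alternatives used DESeq2 1.42.0, limma 3.58.1, other scalings, filters and thresholds, a replicate block and left-out libraries. Peaks and motifs were matched with Python 3.11.15, and files count positions from 0 where the text counts from 1. Scripts were tested on simulated data. Protein sequences and ChIP-Seq signal were not used here. Promoter sequences of 2 of the 8 genes are not reported here.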

Additional observations from a re-analysis of the deposited data

How the results depend on the processing

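With 2 libraries per group, many calls depended on the choices made. At an adjusted p of 0.05, 3 of 14 calls of the set and 5 of 38 of the pathway lists held under every alternative. All were with TPL in NT cells. Leaving out the pair kept 1 library per TAM group, so this count cannot judge calls on TAM cells. In more alternatives than not, 1 (CDK4 in NT cells) and 7 failed. The 7 were E2F6, E2F8, TFDP2, CDK7 and GSK3B with TPL in NT cells, E2F6 with TPL in TAM cells and CDKN1A between the states with TPL. By the stricter thresholds the count of genes changed by TPL in NT cells was 2, and became 1 with upper quartile scaling and 4 at an adjusted p of 0.05. It became 3, with CDK6 added, with DESeq2, with GAPDH scaling, without a filter, where each library needed 10 counts and with limma on log2(FPKM + 1). With only the 2 groups in the fit or with a replicate block it was 0, as over all genes. Leaving out 1 library gave 0 to 1. With TPL in TAM cells the count was 0, and became 6 at 0.05, 3 with DESeq2, 2 where each library needed 10 counts and 1 with only the 2 groups. Leaving out 1 library gave 0, and 0 over all genes as well unless it was an NT+TPL library. Between TAM and NT cells with DMSO it was 1, and became 2 with DESeq2, without a filter, at 0.05 and where each library needed 10 counts, and 0 with scaling by library size only, with a replicate block, with only the 2 groups and without the same pair of libraries. Leaving out 1 library gave 0 to 1. With TPL it was 0, and became 1 with DESeq2, with GAPDH scaling, without a filter and with at least 10 counts, and 2 at 0.05. For the interaction it was 0, and 1 with DESeq2.

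At 0.05 the counts of the set, which do not show which genes they hold, moved by over 1.5 times in few settings, all added after seeing the data. With TPL in TAM cells the count fell from 6 to 0 without the pair of libraries, and between the states from 2 to 0 with DMSO and from 2 to 0 with TPL. GAPDH scaling gave 4 with DMSO, and leaving out TAM+TPL replicate 1 gave 1 with TPL, where CCND3 had an adjusted p of 0.0531. The interaction had 2 with DESeq2 and 1 (CCND2) with at least 10 counts. GAPDH scaling moved the median over all genes to -0.50 on the log2 scale between the states with DMSO. Scaling also moved the split of all genes called by the stricter thresholds. With TPL in NT cells 206 were higher and 460 lower, against 265 and 305 with upper quartile scaling (median log2 fold change 0.31) and 99 and 568 with GAPDH scaling (-0.26). In TAM cells the 143 and 345 became 196 and 210 with upper quartile scaling (0.29). Between the states GAPDH scaling turned 64 and 47 into 36 and 73 with DMSO, and 61 and 40 into 44 and 58 with TPL (-0.25). Peak counts did not change under their alternatives.

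Correlations of replicate differences lay between -0.235 and 0.102, so whether replicate numbers pair the samples is not known. The replicate block left 0 genes of the set by the stricter thresholds in all 5 comparisons and 4, 6, 2, 2 and 0 at 0.05. By those thresholds it also called 0 of all genes with TPL in either state and in the interaction. Crossing the numbers of NT+TPL in the block gave 0 of the set and, over all genes, 34 higher and 64 lower with TPL in NT cells.

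Reversed directions were limited to differences that passed in no setting. With DMSO, TAM against NT, CDK4 (-0.01) was 0.02 with DESeq2, its size factors and only 2 groups and 0.03 with upper quartile scaling, and lay between -0.15 and 0.12 with a library left out. CDK6 (-0.21) lay between -0.41 and 0.01 and RB1 (0.28) between -0.12 and 0.81 with a library left out, and RB1 was -0.23 with GAPDH scaling. CDKN1B (0.04) was -0.45 with GAPDH scaling, between -0.16 and 0.26 with a library left out and -0.16 without the pair. With TPL, CCND1 (-0.07) lay between -0.25 and 0.20. In the interaction CDK4 (-0.13) was 0.11 with GAPDH scaling and 0.02 without the pair, between -0.26 and 0.02 with a library left out, and RB1 (0.36) between -0.18 and 1.01. The cause of these changes was not tested. Summing entries per gene gave no separate value, as each of the 8 genes has 1.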
